A study of Mus musculus with 6 samples.

Results

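The Myc, Max and Mxd network is a set of basic helix-loop-helix leucine zipper transcription factors that compete for shared DNA sites. It was followed here through 10 genes: the Myc paralogs Myc, Mycn and Mycl, their obligate partner Max, the antagonists Mxd1, Mxd3, Mxd4, Mxi1 and Mnt, and the Max-like partner Mlx. The genes were taken by name from the 54838 genes in the deposited files. The family was selected on fold changes between GSK126 and DMSO in these same libraries, which were known when it was proposed, and the members were then chosen by name, so its values in that contrast are a description and support nothing. RNA had been sequenced from 6 samples of B16F10, a pigmented mouse melanoma cell line. In 3 samples the cells had received GSK126 at 10 µM, an inhibitor of EZH2, the enzyme of Polycomb repressive complex 2 that methylates histone H3. The 3 other samples were labelled as DMSO, the solvent. No genetic change is given in the labels for either group, and neither is the duration of treatment. The labels do not say whether the 3 samples of a group came from separate cultures, so each p-value reflects the spread among these samples only, and that spread may be technical.

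Myc binds DNA as a dimer with Max at the E-box and recruits acetyltransferases and ATPases that raise transcription, above all of genes for ribosome production, nucleotide synthesis and cell growth. The Mxd proteins, Mxi1 (also called Mad2) and Mnt pair with the same Max, occupy the same sites and bring in the Sin3 histone deacetylase corepressor. Mlx pairs with some of these antagonists (Mxd1, Mxd4 and Mnt) and with the glucose-responsive factors Mlxip (MondoA) and Mlxipl (ChREBP). In melanoma, as in many tumours, Myc is known as a growth-promoting oncogene, while rising Mxd levels accompany differentiation in several lineages.

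The libraries held 14250457, 14713373 and 14410812 counts with GSK126, against 13594939, 14072673 and 13597959 counts with DMSO. In a principal component analysis, the first component held 40% of the variance. It ran from 10.3 to 18.8 with GSK126 and from -15.2 to -12.2 with DMSO. On the second component (18.7%), GSK126 replicate 3 stood apart from the other 5 libraries, at -17.3 against -3.22 to 11.6. Ezh2, the gene of the inhibited enzyme, averaged 193 ± 3.47 CPM (read counts scaled to a common library size) with GSK126 and 189 ± 4.84 CPM with DMSO (SD, n = 3 each), and its transcript level does not check the action of an enzyme inhibitor. Of 7 melanocyte genes, all were read in every library, with a summed level of 22770 to 23830 CPM with GSK126 and 21210 to 22590 CPM with DMSO. Of these, 4 passed the test as higher and 1 (Mlana) as lower with GSK126, where 5.87% of all genes passed as higher and 5.18% as lower. Mitf, the melanocyte regulator, passed in all 14 alternatives and had a log2 fold change of 0.60 (adjusted p = 0.00101 in edgeR's quasi-likelihood test, with Benjamini-Hochberg adjustment over all genes). Sox10 lost its call without each library but GSK126 replicate 3 (adjusted p up to 0.127), and Mlana lost its call without GSK126 replicate 1, DMSO replicate 1 or DMSO replicate 2 (up to 0.0934) and in the 3 limma fits on FPKM (up to 0.185), which also ended that of Pmel (up to 0.161). Of 10 markers of leukocytes, endothelium, keratinocytes and fibroblasts, Cd3e, Adgre1, Cdh5 and Krt5 had no read in any library, and the 10 together summed to 5.57 to 6.32 CPM with GSK126 and 4.05 to 5.47 CPM with DMSO. In such bulk samples, fewer cells of a type and less RNA per cell cannot be told apart.

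The network's common DNA site, the E-box CACGTG, lies close to the start of 4 of the members' own genes. The stretches below are shown because they hold that site, written in capitals, within 250 bases before to 50 bases after a RefSeq transcription start (GRCm38.p6). Each runs 5′ to 3′ on the gene's own strand.
Mxd4, chr5:34187897-34187956, minus strand: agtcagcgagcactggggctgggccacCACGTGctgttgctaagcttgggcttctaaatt
Mnt, chr11:74830774-74830833, plus strand: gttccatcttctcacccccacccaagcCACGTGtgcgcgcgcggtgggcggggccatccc
Mlx, chr11:101087223-101087282, plus strand: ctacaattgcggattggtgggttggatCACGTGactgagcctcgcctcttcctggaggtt
Max, chr12:76962219-76962278, minus strand: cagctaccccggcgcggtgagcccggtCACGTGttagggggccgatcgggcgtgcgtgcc
The first base of the E-box was 219 bases before the RefSeq start of Mxd4, 123 before that of Mnt, 40 before that of Mlx and 3 before that of Max, where the site spans the RefSeq start. In the deposited gene coordinates Max begins at 76962201 on the minus strand, so the stretch printed for Max lies wholly before it. The windows of Mxd1, Mxd3, Mxi1 (3 windows), Mycn and Mycl did not hold CACGTG. The variant site CACGCG, searched on both strands, was found in the window of Mycl alone. That variant was present in the windows of 20.5% of the tested genes with an entry. In all, 9 of the 10 members had an entry in the promoter table, and Myc was the other. CACGTG, which reads the same on both strands, was present in 7.15% of all 32851 windows, in those of 12.0% of the tested genes with an entry, and in those of 4 of the 9 members. A match here is a string of letters, not a measured binding site.

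Myc was the main Myc paralog transcript of these cells, and it was lower with GSK126. The gene (chr15:61985391-61990374, GRCm38) had 486, 381 and 450 reads with GSK126, against 657, 698 and 640 reads with DMSO. Scaled to library size with TMM factors, this was 33.9, 25.9 and 31.4 CPM with GSK126, against 48.3, 49.7 and 47.4 CPM with DMSO. All 3 GSK126 libraries lay below all 3 DMSO libraries, with replicate 2 the lowest. Its log2 fold change was -0.67 with a standard error of 0.10 (95% interval -0.91 to -0.43), a level 1.59-fold lower with GSK126. Among the 13601 genes tested, 2.13% had a lower log2 fold change. Myc passed the all-gene test, set at an adjusted p of 0.05, in the edgeR fit and in each of 14 alternatives, with log2 fold changes between -0.76 and -0.55, and of -0.70 without GSK126 replicate 3.

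The other Myc paralogs were at or near 0. Mycn (chr12:12936093-12941914), the paralog known from neural tumours, had no read in any GSK126 library and 0, 0 and 1 reads in the DMSO libraries. Mycl (chr4:122995652-123002485), named after its amplification in lung cancer, had 2, 0 and 0 reads with GSK126 and none with DMSO. A library with 0 reads of a gene allows a level of up to 0.204 to 0.221 CPM, counting 3 reads as the limit and counting error alone. Neither gene had enough reads to be tested. Myc accounted for 99.8% ± 0.33 of the summed deposited FPKM of the Myc paralogs with GSK126 and 99.9% ± 0.13 with DMSO (SD, n = 3 each).

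Max (chr12:76937269-76962201), the partner that Myc and the antagonists share, did not pass the test. It stood at 72.2, 75.6 and 58.8 CPM with GSK126, against 52.1, 85.3 and 74.8 CPM with DMSO. The DMSO libraries enclosed the whole GSK126 range. The log2 fold change was -0.04 with a standard error of 0.18 (95% interval -0.46 to 0.38), an interval wide enough to hold a change as large as -0.46. Its sign depended on the library left out: 0.06 without GSK126 replicate 3, 0.12 without DMSO replicate 2, and -0.22 without DMSO replicate 1.

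**Figure D1:**
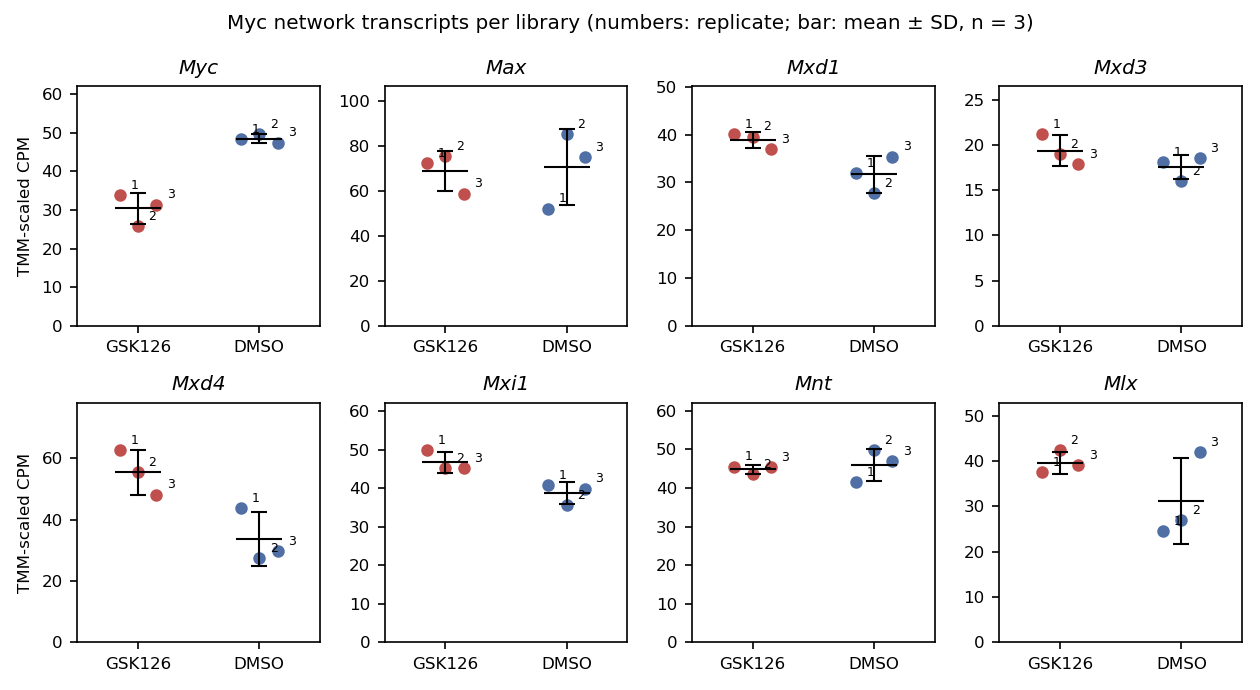
Transcript level in TMM-scaled CPM (linear axes from 0) of the 8 network genes with enough reads to test, in 3 GSK126 libraries (left of each panel) and 3 DMSO libraries (right). Points are libraries with their replicate numbers, and black bars give the mean ± SD. The Myc points with GSK126 all lie below those with DMSO, and the Mxd4, Mxd1 and Mxi1 points with GSK126 all lie above, while the Max, Mxd3, Mnt and Mlx groups overlap.

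Among the antagonists, Mxd4 was the member with the largest log2 fold change. Mxd4 (Mad4; chr5:34173883-34187720), a Max-binding repressor, stood at 62.6, 55.5 and 48.2 CPM with GSK126, against 43.9, 27.6 and 29.7 CPM with DMSO. The groups did not overlap, but DMSO replicate 1 came within a few CPM of the lowest GSK126 library. The log2 fold change was 0.72 with a standard error of 0.18 (95% interval 0.29 to 1.15), a level 1.64-fold higher with GSK126. It passed the all-gene test narrowly. Without DMSO replicate 1 it was 0.95 and the call held. It was 0.62, 0.72 and 0.81 without GSK126 replicates 1, 2 and 3, and 0.59 and 0.63 without DMSO replicates 2 and 3, and in each of these 5 fits the call was lost. Over all 14 alternatives Mxd4 passed in 5.

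Mxd1 and Mxi1 were higher in every GSK126 library than in any DMSO library, by smaller amounts, and neither passed the test. Mxd1 (Mad1; chr6:86647042-86669161), the founding member of the Mxd repressors, had 40.1, 39.6 and 37.0 CPM with GSK126, against 32.0, 27.7 and 35.4 CPM with DMSO. Its log2 fold change was 0.29 with a standard error of 0.10 (95% interval 0.06 to 0.53). Mxi1 (chr19:53310506-53375810), named as a Max interactor, had 49.8, 45.2 and 45.1 CPM with GSK126, against 40.8, 35.6 and 39.9 CPM with DMSO. This gave a log2 fold change of 0.27 with a standard error of 0.08 (95% interval 0.08 to 0.45). In none of the 14 alternatives did either gene pass.

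Mxd3 and Mnt gave overlapping groups. Mxd3 (Mad3; chr13:55325168-55329823), the Mxd member known for expression in cycling cells, had 21.2, 19.0 and 17.9 CPM with GSK126, against 18.1, 16.0 and 18.5 CPM with DMSO, and its log2 fold change was 0.14 with a standard error of 0.10. Mxd3 shares 105 bases of exon with Prelid1 on the opposite strand, which had 25771 reads against 1560 for Mxd3, and reads of this stretch cannot be assigned to either gene because no strand setting is given. Mnt (chr11:74830920-74845725), the broadly expressed antagonist outside the Mxd group, had 45.5, 43.6 and 45.4 CPM with GSK126, against 41.5, 49.7 and 46.9 CPM with DMSO. Its log2 fold change was -0.04 with a standard error of 0.08 (95% interval -0.23 to 0.15). The DMSO libraries again enclosed all the GSK126 values, and the sign turned, to 0.02, without DMSO replicate 2.

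Mlx (chr11:101087277-101092207) rested on how 1 DMSO library was read. It had 37.6, 42.4 and 39.1 CPM with GSK126, against 24.5, 27.0 and 42.0 CPM with DMSO. DMSO replicate 3 lay inside the GSK126 range while the other DMSO libraries lay well below it. The log2 fold change was 0.35 with a standard error of 0.19 (95% interval -0.10 to 0.80), which did not pass. Without DMSO replicate 3 it was 0.62 and passed, and without any other library it was 0.20 to 0.39 and did not. Mlx shares 385 bases of exon with Psmc3ip on the opposite strand, a gene with a log2 fold change of -0.09. With the counts of both genes summed, a choice made after seeing the data, the log2 fold change was 0.17 and did not pass. That sum mixes all reads of both genes, so it cannot show how reads of the shared stretch were assigned.

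Counted over the 8 members that could be tested, 1 passed as higher (Mxd4) and 1 as lower (Myc) with GSK126. Over all 13601 genes, 5.87% passed as higher and 5.18% as lower. By the simpler criterion of groups that do not overlap, 3 members were higher (Mxd1, Mxd4 and Mxi1) and 1 was lower (Myc), where 17.6% of all genes were higher and 16.8% were lower. These counts describe a family chosen with the contrast known. The median log2 fold change of the 8 members was 0.21, beside -0.00048 over all genes tested.

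**Figure D2:**
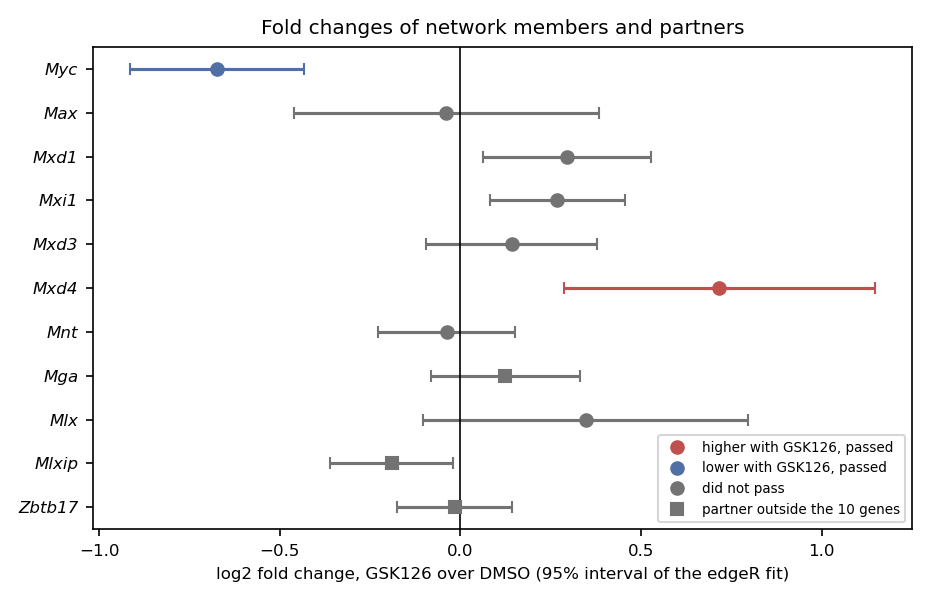
Log2 fold change of each network gene and of 3 partners, GSK126 over DMSO (x axis; positive values are higher with GSK126), with the 95% interval of the edgeR fit from 3 libraries a group. Round points are the members and square points the partners Mga, Mlxip and Zbtb17, and colour marks the genes that passed the all-gene test. Myc at -0.67 and Mxd4 at 0.72 are the coloured points, and the intervals of Mxd1, Mxi1 and Mlxip also lie off 0. The intervals are not adjusted for the number of genes. Of the 13601 genes tested, 3735 had an unadjusted p below 0.05 in the same edgeR test.

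The relation between Myc and its antagonists was described within each library on scales that divide by gene length. On the deposited FPKM scale, Myc stood at 4.10, 3.11 and 3.76 with GSK126, against 5.81, 5.97 and 5.66 with DMSO. The summed FPKM of Mxd1, Mxd3, Mxd4, Mxi1 and Mnt was 33.3, 30.7 and 29.5 with GSK126, against 27.2, 25.1 and 26.9 with DMSO. Myc was lower and the antagonists' sum higher in every GSK126 library than in any DMSO library. The summed antagonist FPKM was 8.61 ± 1.08 times that of Myc with GSK126 and 4.55 ± 0.30 times with DMSO (SD, n = 3 each). The log2 ratio of Myc to the summed antagonists differed by -0.92 between the groups, and by -0.98 to -0.82 when each library was left out in turn. Since the genes were chosen with these fold changes known, the ratio carries no test.

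These ratios between genes depend on the gene lengths used, whereas the fold change of a single gene does not. The deposited FPKM of Myc corresponds to a length of 8315 bases, while its exons in GENCODE M21 cover 2717 bases, a 3.06-fold gap. The same quotient was 1.69 for Max, 1.60 for Mlx, 1.78 for Mxd3, 1.24 for Mnt, 1.19 for Mxd4, 1.12 for Mxd1 and 0.824 for Mxi1, with a median of 1.35 over 11012 genes. On a scale of CPM per kilobase of those exons, the summed antagonist level was 3.32 ± 0.42 times that of Myc with GSK126 and 1.77 ± 0.12 times with DMSO (SD, n = 3 each), and the log2 ratio differed by -0.90. The difference in log2 ratio was thus close on the 2 scales, while the ratio itself was not.

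**Figure D3:**
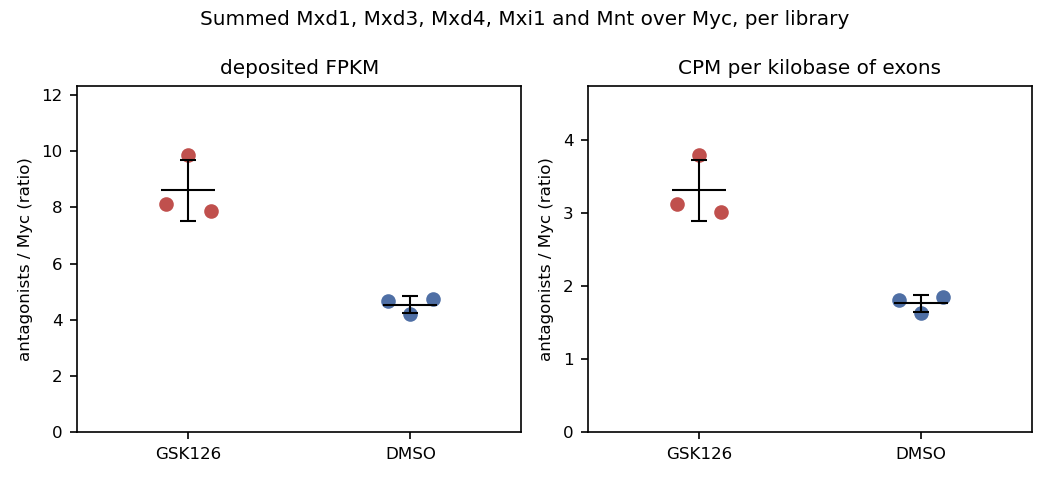
Ratio of the summed antagonist level (Mxd1, Mxd3, Mxd4, Mxi1 and Mnt) to the Myc level in each library, GSK126 left and DMSO right, on the deposited FPKM scale (left panel) and as CPM per kilobase of exon (right panel), on linear axes from 0. Points are libraries and bars are the mean ± SD. The GSK126 points lie above the DMSO points in both panels, at a mean of 8.61 against 4.55 on the FPKM scale and 3.32 against 1.77 on the exon scale.

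The order of the members by level changed with the length scale, for Myc and also for Mxi1 and Mxd3. On the deposited FPKM scale with GSK126, Mlx and Max were highest, followed by Mxi1 and Mnt, then Mxd4, Mxd1 and Mxd3, and then Myc, and neighbours within each of these groups overlapped. With DMSO on that scale, Max, Mlx, Mnt and Mxi1 came first, then Myc, then Mxd3, Mxd1 and Mxd4. On the exon scale Myc took the third place with GSK126, at 11.2 ± 1.53 CPM per kilobase, where its range overlapped that of Mnt below it. There it took the second place with DMSO, at 17.8 ± 0.47 CPM per kilobase, where its range overlapped those of Max and Mlx on either side (SD, n = 3 each). With GSK126, Mxi1 stood at rank 3 on the FPKM scale and rank 6 on the exon scale. In both groups Mxi1 lay above Mxd3 on the FPKM scale and below it on the exon scale, at 6.85 against 8.17 CPM per kilobase with GSK126 and 5.67 against 7.38 with DMSO, and these ranges did not overlap. Mycn and Mycl were last in both groups on both scales.

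Within the antagonists, Mxd4 held 17.6% ± 1.35 of the summed FPKM with GSK126 and 12.6% ± 2.96 with DMSO (SD, n = 3 each). The values were 18.8%, 18.0% and 16.1% with GSK126, against 16.0%, 10.9% and 10.9% with DMSO. GSK126 replicate 3 and DMSO replicate 1 were nearly equal, so the groups barely separated. The Max level divided by the summed FPKM of Myc and the antagonists averaged 0.326 ± 0.040 with GSK126 and 0.363 ± 0.097 with DMSO (SD, n = 3 each), and the groups overlapped.

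Of the 4 wider partners, 3 had enough reads to be tested, and none of these passed. Mga, a large factor that carries both a T-box and a Max-binding domain, had a log2 fold change of 0.12 with a standard error of 0.09. Mlxip, the MondoA partner of Mlx, stood at 57.9, 65.2 and 59.1 CPM with GSK126, against 68.0, 73.9 and 65.9 CPM with DMSO. Every GSK126 library was below every DMSO library for Mlxip, as in 16.8% of all genes tested. The log2 fold change of Mlxip was -0.19 with a standard error of 0.07. Mlxipl, the ChREBP partner of Mlx known from liver, had no read in any library. Zbtb17 (Miz1), a zinc-finger factor through which Myc represses genes, had a log2 fold change of -0.02 with a standard error of 0.07, which turned to 0.05 without DMSO replicate 1; it shares 41 bases of exon with Spen on the opposite strand, a gene with 22380 reads against 6231.

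Of 32 genes listed as activated by Myc, 19 passed the test as lower with GSK126, 1 passed as higher and 12 did not pass, where 5.18% of all genes passed as lower and 5.87% as higher. In 25 of the 32, every GSK126 library was below every DMSO library, and in 2 every one was above, where the shares over all genes were 16.8% and 17.6%. Their median log2 fold change was -0.29, beside -0.00048 over all genes tested. The number that passed as lower was 12 without a filter on low counts, 12 with limma on unfiltered FPKM and 8 with the replicate number as a term. It was 11, 15 and 13 without GSK126 replicates 1, 2 and 3, and 9, 9 and 12 without DMSO replicates 1, 2 and 3. The list is of nucleolar, ribosome-production, nucleotide and growth genes from general knowledge of Myc, and it was written with earlier results of these libraries known. A RefSeq window held CACGTG in 8 of the 26 listed genes with an entry (30.8%), beside 12.0% of the tested genes with an entry. The variant CACGCG, on either strand, was held in 12 of the 26 (46.2%), beside 20.5%.

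The listed target with the lowest log2 fold change was Rrp9, a protein of the U3 small nucleolar RNA particle that processes ribosomal RNA. It stood at 16.7, 16.9 and 16.3 CPM with GSK126, against 25.4, 26.9 and 24.2 CPM with DMSO. The groups were far apart against their own spread, with a log2 fold change of -0.62 ± 0.08 (SE; edgeR with Benjamini-Hochberg adjustment, adjusted p = 0.00478). Nop2, an RNA methyltransferase of the large ribosomal subunit, had 157, 156 and 151 CPM with GSK126, against 219, 220 and 217 CPM with DMSO (log2 fold change -0.50 ± 0.04 (SE), edgeR adjusted p = 0.000939). Ppan, a nucleolar factor of large-subunit assembly, had 33.9, 37.2 and 36.3 CPM with GSK126, against 54.0, 51.6 and 45.9 CPM with DMSO (log2 fold change -0.50 ± 0.08 (SE), edgeR adjusted p = 0.0123). Rrp9 and Nop2 passed in every fit that left out a library, while Ppan had an adjusted p of 0.0506 without DMSO replicate 1 and 0.0548 without DMSO replicate 2. Rrp9 shares 20 bases of exon with Parp3 on the opposite strand, whose log2 fold change was 0.02.

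The listed target that passed as higher was Ldha, the lactate dehydrogenase subunit that turns pyruvate into lactate. Ldha is also a textbook target of the hypoxia-inducible factors. It had 1408, 1359 and 1346 CPM with GSK126, against 887, 852 and 875 CPM with DMSO. Ldha had a log2 fold change of 0.65 with a standard error of 0.04 (edgeR adjusted p = 0.000272), and it passed in all 14 alternatives. Processed copies of Ldha elsewhere in the genome could take some of its reads. Among the 12 that did not pass were Odc1 (ornithine decarboxylase, log2 fold change 0.03), Npm1 (nucleophosmin, -0.19), Cdk4 (a G1 kinase, -0.08) and Tert (the telomerase enzyme, 0.19), which were picked out after their values were seen. For Tert, every GSK126 library was above every DMSO library. Cdk4 shares 641 bases of exon with Tspan31 on the opposite strand, a gene with 11801 reads against 24417 for Cdk4.

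**Figure D4:**
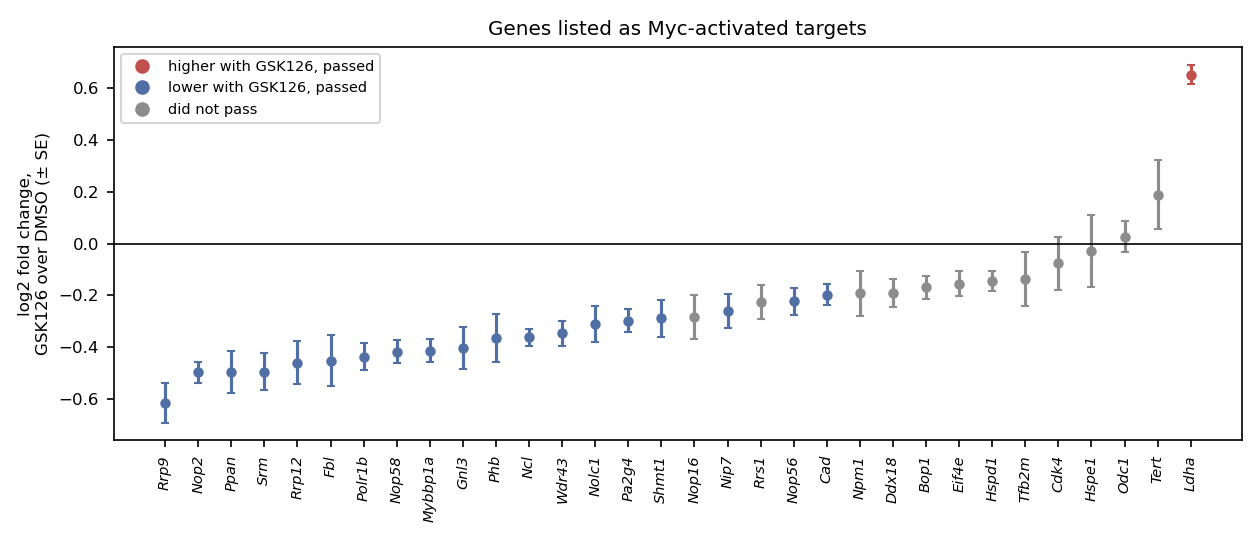
Log2 fold change (GSK126 over DMSO, y axis) with its standard error for the 32 genes listed as Myc-activated targets, ordered from lowest to highest. Colour marks the genes that passed the all-gene test: 19 were lower with GSK126 and 1, Ldha, was higher, and 29 of the 32 points lie below 0.

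Genes listed as repressed by Myc did not share a direction. Of 8, 3 had no read in any library (Cdkn2b, Cebpa and Gas1), 2 passed as higher with GSK126 and 3 did not pass, where 5.87% of all tested genes passed as higher and 5.18% as lower. In 2 of the 5 tested, every GSK126 library was above every DMSO library, and in 1 every GSK126 library was below, where the shares over all genes were 17.6% and 16.8%. Ndrg1, a stress- and differentiation-related gene that N-myc was found to repress, had 51.8, 44.3 and 50.6 CPM with GSK126, against 37.4, 35.0 and 36.1 CPM with DMSO. Its log2 fold change was 0.43 ± 0.08 (SE, edgeR adjusted p = 0.0169). Ndrg2, from the same family, was much less abundant, at 5.93, 4.89 and 3.42 CPM with GSK126, against 2.35, 1.78 and 2.08 CPM with DMSO. Ndrg2 had a log2 fold change of 1.20 ± 0.25 (SE, edgeR adjusted p = 0.0256). Leaving out GSK126 replicate 1 or any DMSO library ended the call of Ndrg1, with an adjusted p of up to 0.0740. Leaving out any library but GSK126 replicate 3 ended that of Ndrg2, with an adjusted p of up to 0.0942. The other 3 tested genes are named after their values were seen. Gadd45a, a growth-arrest and DNA-damage gene, had 4.19, 5.30 and 3.35 CPM with GSK126, against 5.66, 8.61 and 7.26 CPM with DMSO. All its GSK126 libraries lay below its DMSO libraries, at a log2 fold change of -0.74 with a standard error of 0.22, which did not pass. The cell-cycle inhibitors Cdkn1a (p21) and Cdkn1b (p27) had log2 fold changes of -0.08 and 0.0016 and did not pass.

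The targets of Mlx with MondoA were represented by Txnip, the thioredoxin-interacting protein that limits glucose uptake, and Klf10. Of 4 listed genes, Arrdc4 had no read and Pklr had 10 reads, all with GSK126, and neither was tested. Txnip stood at 67.1, 53.6 and 54.7 CPM with GSK126, against 45.4, 40.3 and 41.4 CPM with DMSO. All GSK126 libraries were above all DMSO libraries, with a log2 fold change of 0.47 ± 0.10 (SE, edgeR adjusted p = 0.0309), though the call ended without GSK126 replicate 1 or any DMSO library, with an adjusted p of up to 0.109. Klf10 had a log2 fold change of 0.23 and did not pass, and all its GSK126 libraries were also above all its DMSO libraries. Over all genes, 5.87% passed as higher, and in 17.6% every GSK126 library was above every DMSO library.

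Among cofactors, 3 of 10 Myc coactivators passed as lower with GSK126 and none as higher, where 5.18% of all genes passed as lower and 5.87% as higher. Ruvbl1 and Ruvbl2, paired ATPases of chromatin-remodelling complexes, had log2 fold changes of -0.34 ± 0.05 and -0.28 ± 0.06 (SE), with edgeR adjusted p-values of 0.00974 and 0.0309. Kat2a (Gcn5), an acetyltransferase, had one of -0.24 ± 0.06 (SE, edgeR adjusted p = 0.0446). Ruvbl1 passed in all 6 fits that left out a library, while Ruvbl2 passed only without DMSO replicate 2 and Kat2a only without GSK126 replicate 2, with adjusted p-values of up to 0.107 and 0.132 otherwise. Without a filter on low counts Ruvbl1 was the 1 coactivator that passed, and with the replicate number as a term none passed as lower. Ruvbl2 shares 310 bases of exon with Gys1. The other 7 coactivators, which include Trrap, the scaffold that Myc binds, did not pass. None of the 6 corepressor genes used by the antagonists passed. In 2 of the 6, Sap30 and Sin3a, every GSK126 library was above every DMSO library, and in 0 every one was below. Over all genes these shares were 17.6% and 16.8%. The log2 fold change was 0.43 for Sap30 and 0.18 for Sin3a. The most abundant of the 6, Ncor1, had a log2 fold change of 0.06 with a standard error of 0.08, and turned to -0.03 without GSK126 replicate 3.

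Of 10 genes that act on Myc protein stability, Skp2 alone passed, as lower, where 5.18% of all genes passed as lower and 5.87% as higher, so 1 of 10 is near the share over all genes. Skp2 encodes an F-box protein that marks Myc for degradation, and it had a log2 fold change of -0.30 ± 0.08 (SE, edgeR adjusted p = 0.0456) that no longer passed without any one of the libraries, with an adjusted p of 0.0559 to 0.132. Pvt1, the long non-coding RNA gene next to Myc on chromosome 15 (chr15:62037986-62378096), was also lower. It stood at 6.70, 7.34 and 6.69 CPM with GSK126, against 9.41, 13.4 and 10.7 CPM with DMSO. Its log2 fold change was -0.69 ± 0.15 (SE, edgeR adjusted p = 0.0309), close in size to that of Myc. The call held without DMSO replicate 1 and ended without each other library, with an adjusted p of up to 0.0910.

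The genes most like Myc in their pattern were found by the root mean square difference between log2 CPM profiles over the 6 libraries, each centred on its mean, over 9917 genes averaging 5 CPM or more, leaving out predicted genes, clone names, pseudogenes and the members. The nearest was Jag1, a Notch ligand, at 0.0694, with 18.5, 16.1 and 19.4 CPM with GSK126, against 27.7, 30.0 and 29.3 CPM with DMSO. Like Myc, Jag1 was lowest in GSK126 replicate 2, which choosing genes by their profile favours. Frmd3 followed at 0.0907, Cebpb at 0.0924, Hapln1 at 0.0969 and Trmt61a at 0.104, with log2 fold changes of -0.53, -0.75, -0.55 and -0.69. Cebpb shares 312 bases of exon with Tmem189 on the opposite strand, which had 10862 reads against 835.

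For Mxd4 the nearest profiles were Zfp827 at 0.0876, Nudt16 at 0.118, Pde6d at 0.127, Tpi1 at 0.141 and Kdm5b at 0.145. Their log2 fold changes were 0.65, 0.65, 0.80, 0.58 and 0.75. Nudt16 did not pass the test (edgeR adjusted p = 0.110). Zfp827 and Pde6d passed narrowly (edgeR adjusted p = 0.0467 and 0.0499), and in 4 and 2 of the 14 alternatives. Tpi1 passed in 10 of these and Kdm5b in all 14. In each of these 5 genes, DMSO replicate 1 was the highest DMSO library, as it was for Mxd4. Choosing genes by their likeness to the Mxd4 profile favours this, and likewise their fold changes. Pde6d, for instance, stood at 56.3, 54.2 and 54.5 CPM with GSK126, against 43.8, 24.3 and 26.4 CPM with DMSO. Likeness here is a description over 6 libraries that also share depth and group, and it was not tested.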

How the data were processed

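RNA from 6 samples of B16F10 cells was sequenced, 3 with GSK126 and 3 with DMSO, grouped by their treatment labels. Per the submitters' processing notes, CASAVA 1.8 and HISAT2 were used, with GRCm38.p4/mm10. For the counting tool, annotation and strand setting, nothing is given in the sources used here. The authors deposited unnormalized counts for every gene, and FPKM values of the same libraries.

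Tests ran on these counts in edgeR 4.0.16 under R 4.3.3 (filterByExpr, TMM, quasi-likelihood F test with group as the only term), with Benjamini-Hochberg adjustment over 13601 genes and a threshold of 0.05. CPM values of single genes use TMM-scaled library sizes. The summed marker levels, the limit for genes without reads and CPM per kilobase use total counts. The fit was also run on simulated data, and no result here rests on that run. Alternatives used DESeq2 1.42.0, limma 3.58.1 on log2(FPKM + 1) and log2(FPKM + 0.1), other filters and scaling, a replicate block, and each library left out. The chi-square statistic between replicates was 7.12 to 13.3 times its degrees of freedom, above counting noise. The BCV was 0.119, and the median SE of a log2 fold change was 0.0872 over 10973 genes with at least 5 CPM.

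The members and lists were chosen with earlier results of these data known. Named were all members and partners, up to 4 passing genes with the largest change per list or else the most abundant, and the 5 nearest profiles to Myc and to Mxd4. Shared exons and exon lengths come from GENCODE M21 (GRCm38); coordinates are those of the files. Promoter windows come from RefSeq.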

Additional observations from a re-analysis of the deposited data

How the results depend on the processing

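Of 548 values recomputed for 39 named genes, 426 kept their direction and their side of the threshold, 115 kept the direction but no longer passed, 1 newly passed and 6 turned sign. The 1 that newly passed was Mlx without DMSO replicate 3 (adjusted p = 0.0229 by edgeR). Those that turned sign had not passed: Max at 0.06, 0.12 and 0.0025, Mnt at 0.02, Zbtb17 at 0.05 and Ncor1 at -0.03, each in a fit that left out a library. In those fits the log2 fold change ran from -0.22 to 0.12 for Max, -0.11 to 0.02 for Mnt (0.0198), -0.057 to 0.049 for Zbtb17 and -0.0301 to 0.12 for Ncor1. Mxd4 had an edgeR adjusted p of 0.0488, and of 0.0182 to 0.145 when a library was left out.

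The 798 genes higher and 705 lower with GSK126 became 463 and 436 without a filter on low counts, 440 and 427 with limma on unfiltered FPKM, 230 and 178 with the replicate block, and 279 to 640 and 250 to 603 when a library was left out. The cause was not tested. Network members called higher numbered 0 without a filter and in the 3 limma fits on FPKM, and 0 to 1 when a library was left out. The 1 was Mxd4 without DMSO replicate 1 and Mlx without DMSO replicate 3. The 19 lower Myc-activated targets became 12 without a filter, 12 with limma on unfiltered FPKM, 8 with the block, and 9 to 15 when a library was left out. The 3 lower coactivators became 1, 1 and 0, and 1 to 2. Same-numbered libraries deviated together with r = 0.0665, 0.021 and -0.042 over genes, against -0.102 to 0.0794 for libraries of different numbers. No effect shared by replicate number was seen. With 3 libraries a group this cannot show whether the samples were prepared as pairs, and the labels do not say.

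With 3 libraries a group, the median SE of 0.0872 limits precision, and Mycn and Mycl had too few reads to test.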
